A study of Rattus norvegicus with 34 samples.

Results

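EMD 82571 is a compound that the study's title describes as a calcium sensitizer, a class of drugs developed to raise the response of heart muscle to calcium. Its effect on the fetal skeleton was examined in bone of day 20 rat embryos, on 4 of the series' 34 cDNA arrays. Those 4 arrays were chosen by their source labels: 2 carried RNA of embryo bone after 150 mg and 2 after 50 mg of the compound per kg of dam per day. Treated RNA was labelled with Cy5 and hybridised with Cy3-labelled RNA of vehicle-treated controls, so each array gave its own treated over vehicle ratio. The dams were pregnant Wistar rats dosed daily from gestation day 6, with dosing windows that ended on day 11 or on day 17, and the labels do not tie a window to a group. Bone of day 20 embryos after retinoic acid (2 arrays) and liver of day 20 embryos after 150 mg or 50 mg of EMD 82571 (2 arrays each) served for comparison. The retinoic acid dose is 20 mg in the label but 12 mg per kg per day in the protocol.

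Most bones of the limbs, spine and skull base form on a cartilage model. Chondrocytes build a matrix of type II, IX and XI collagen filled with aggrecan, which link protein ties to hyaluronan. Osteoclasts, which arise from the monocyte lineage under the cytokines M-CSF and RANKL, then resorb calcified cartilage and bone, while osteoblasts driven by Runx2 lay down type I collagen. The array was a targeted one and held 6 of 12 listed cartilage genes, 4 of 12 osteoclast genes and 3 of 13 osteoblast and bone matrix genes.

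The labelled tissue was checked in the vehicle channel, in 6 embryo bone arrays against 4 embryo liver arrays. On a log2 scale, Spp1 (osteopontin) was 6.92 higher in bone, Col2a1 6.17, Mmp13 5.66 and Mmp9 4.35. The hepatocyte genes Cyp2d2, A2m and Hnf4a were lower in bone by log2 differences of -5.68, -5.53 and -4.01. The 4 EMD bone arrays gave values for 226 to 238 of 239 probes. The first 150 mg array had 139 spots marked as uneven, against 13 to 106 on the 50 mg arrays and 30 on the second 150 mg array, and it lacked a value for Col9a1, Col11a1 and Col1a2. Across probes, the log2 ratios of the paired arrays correlated with r = 0.978 at 150 mg and 0.943 at 50 mg, a description over probes that are not independent. Nothing in the labels shows that the 2 arrays of a dose carry different animals. Arrays of a dose differed about as much as replicate spots within an array. The median squared difference, over that expected from the spots, was 0.355 at 150 mg and 0.596 at 50 mg. The p-values thus measure a spread that may be technical. No array had its dyes swapped, so any dye effect is part of each ratio against vehicle.

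At 150 mg, cartilage matrix transcripts and several transcription factors were higher than in vehicle bone, and osteoclast and type I collagen transcripts and the plasma protein genes Serpina1 and A2m were lower. At 50 mg the cartilage genes, Serpina1 and A2m passed in the same directions. Of the 23 probes called at both doses, 20 lay further from 0 at 150 mg. In a limma fit with Benjamini-Hochberg adjustment at 0.05, 72 of 238 probes (30.3%) passed at 150 mg, 40 higher (16.8%) and 32 lower (13.4%). At 50 mg 29 of 238 (12.2%) passed, 12 higher (5.04%) and 17 lower (7.14%). The deposited log2 ratios, centred on each array's median, gave other counts: 24 higher and 12 lower at 150 mg, and 10 higher and 4 lower at 50 mg. Centring on the median in place of loess gave 19 higher and 10 lower at 50 mg. Changes of more than 2-fold among the called probes numbered 10 at 150 mg and 6 at 50 mg. Small ratios also passed for Gapdh and ribosomal protein genes: at 150 mg Rps3 had 0.34, Gapdh 0.23 and Rps7 0.18 on the log2 scale. Rps3 passed at 50 mg too, with 0.20, while Actb, Hprt1 and TUBA did not pass at either dose. The shared calls were 31.9% of the 150 mg calls and 79.3% of the 50 mg calls. The vehicle channels of the 4 arrays correlated with r of 0.986 to 0.994, as high between doses as within them. Shared vehicle RNA is neither stated nor denied in the labels, so values at the 2 doses are given side by side and not as independent repeats. Leaving out 1 array lowered the number of calls to 35 or 37 at 150 mg and to 14 or 16 at 50 mg.

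**Figure D1:**
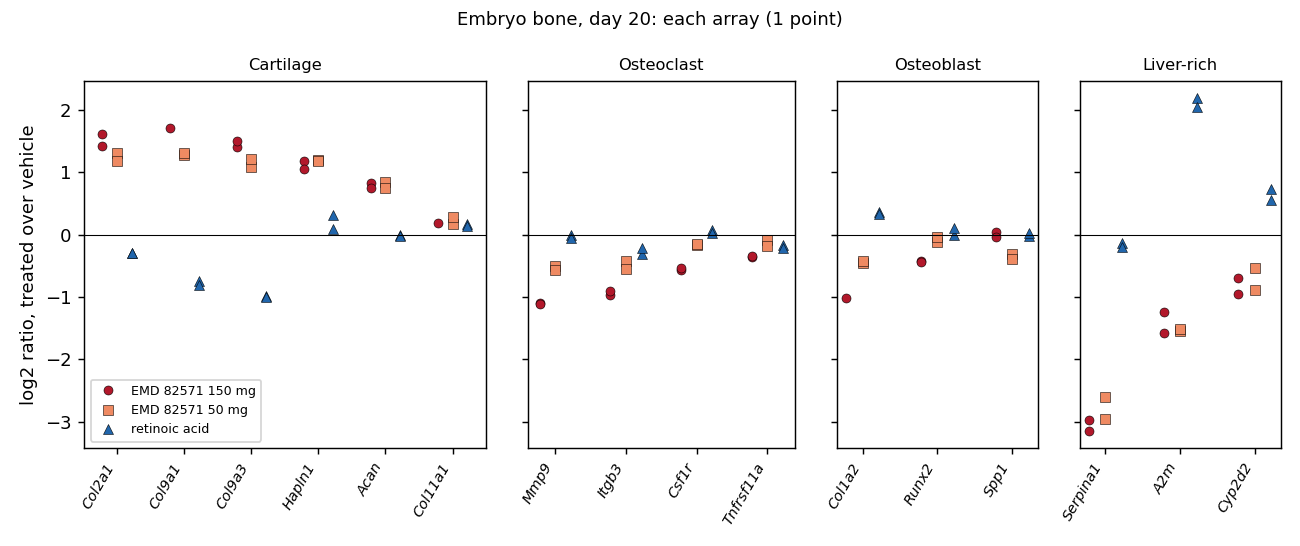
Log2 ratio of treated over vehicle for the genes described in the text, 1 point per array, for EMD 150 mg, EMD 50 mg and retinoic acid in day 20 embryo bone. Cartilage genes lie above 0 on the EMD arrays, with Col2a1 at 1.43 and 1.61 at 150 mg, and osteoclast genes, Serpina1 and A2m lie below 0.

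The cartilage matrix genes moved together. Of 6 measured, 5 rose and none fell at 150 mg, with a median log2 ratio of 1.29 over the 6, and 5 rose and none fell at 50 mg, with a median of 1.17. The median over all 238 probes was 0.00 at both doses, and 16.8% of them rose at 150 mg and 5.04% at 50 mg. Col2a1, the chain of type II collagen and the main fibril of cartilage, had normalised intensities of 33921 and 28541 in 150 mg bone, against 12580 and 9331 in the vehicle channel of the same arrays. In 50 mg bone it had 19077 and 18897, against 7694 and 8332 in vehicle. Every treated value of Col2a1 exceeded every vehicle value. The fitted change was 2.87-fold at 150 mg (log2 1.52, SE 0.07, adjusted p = 9.4e-09) and 2.37-fold at 50 mg (log2 1.25, SE 0.07, adjusted p = 9.5e-08). With the gene's mean over the groups subtracted, the log2 values were 0.80 and 0.52.

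Type IX collagen coats the type II fibrils, and both of its chains on the array rose. Col9a3 had intensities of 26837 and 24766 in 150 mg bone, against 10065 and 8751 in vehicle, and log2 ratios of 1.09 and 1.21 at 50 mg. Col9a1 gave 1.72 on the only 150 mg array that measured it, which the fit took to vary like the arrays of the other groups, and 1.29 and 1.32 at 50 mg. Each array that measured them gave at least a 2-fold ratio. Hapln1, the link protein, was measured at 2101 and 1447 in 150 mg bone, against 927 and 695 in vehicle, and at 1566 and 2173 in 50 mg bone, against 679 and 959 in vehicle. Its change was 2.17-fold at 150 mg (adjusted p = 4.0e-11) and 2.29-fold at 50 mg (adjusted p = 1.2e-11). Acan, the large proteoglycan that holds water in cartilage, rose 1.73-fold at 150 mg and 1.74-fold at 50 mg, with log2 ratios between 0.75 and 0.85 on all 4 arrays. Col11a1, the chain that sits in the core of the fibril, did not pass: its log2 ratios were 0.19 at 150 mg and 0.17 and 0.29 at 50 mg.

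None of the 6 cartilage genes differed between the doses by the test. The 150 mg minus 50 mg difference on the log2 scale was 0.28 for Col2a1 (95% interval 0.07 to 0.48), -0.07 for Hapln1 (-0.28 to 0.13) and -0.01 for Acan (-0.22 to 0.21). The intervals show which differences between the doses these arrays still allow.

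The promoters of 4 matrix genes are shown because 3 of them rose together (Col9a1, Hapln1, Acan) and the fourth, the type I collagen chain Col1a2, fell. They come from RefSeq on build GRCr8, 300 bases around the start of each gene on the plus strand, at chr9:34081114-34081413, chr2:22366717-22367016, chr1:142390701-142391000 and chr4:33518307-33518606 in that order. RefSeq promoters were found by symbol for 160 of 239 probes. Capitals mark a match on either strand to the SOX letters ACAAAG or AACAAT, the RUNX letters TGTGGT or the TATA box TATAAA.
Col9a1: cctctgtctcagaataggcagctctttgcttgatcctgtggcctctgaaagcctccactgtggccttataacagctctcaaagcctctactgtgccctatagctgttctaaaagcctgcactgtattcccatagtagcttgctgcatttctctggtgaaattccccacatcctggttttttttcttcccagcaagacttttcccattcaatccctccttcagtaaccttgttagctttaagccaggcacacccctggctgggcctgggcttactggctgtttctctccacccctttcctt
Hapln1: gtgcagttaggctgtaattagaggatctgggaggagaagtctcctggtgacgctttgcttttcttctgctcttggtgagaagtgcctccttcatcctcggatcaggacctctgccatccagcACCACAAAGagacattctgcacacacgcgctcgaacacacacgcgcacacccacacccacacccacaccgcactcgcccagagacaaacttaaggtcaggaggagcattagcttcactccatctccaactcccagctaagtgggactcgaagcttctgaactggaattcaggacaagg
Acan: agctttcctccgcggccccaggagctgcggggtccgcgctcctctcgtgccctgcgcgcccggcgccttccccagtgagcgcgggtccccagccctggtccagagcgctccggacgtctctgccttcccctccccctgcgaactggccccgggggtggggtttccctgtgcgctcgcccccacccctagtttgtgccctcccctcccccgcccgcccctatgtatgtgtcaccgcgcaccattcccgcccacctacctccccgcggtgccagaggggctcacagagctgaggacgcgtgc
Col1a2: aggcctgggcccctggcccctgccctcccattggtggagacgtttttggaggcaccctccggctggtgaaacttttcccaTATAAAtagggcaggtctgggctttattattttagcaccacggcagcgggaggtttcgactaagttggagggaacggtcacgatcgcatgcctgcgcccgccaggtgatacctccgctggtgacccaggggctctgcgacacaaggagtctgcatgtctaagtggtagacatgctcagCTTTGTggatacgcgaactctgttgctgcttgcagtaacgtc
Hapln1 held 1 SOX and 1 RUNX match that overlap in a single run of capitals, and Col1a2 held 1 SOX match and a TATA box. Col9a1 and Acan held none of these letters in this window. Among 33469 RefSeq promoters of the same length, ACAAAG was present in 18.8%, AACAAT in 11.7%, TGTGGT in 17.3% and TATAAA in 14.2%. A match is a description of the letters only.

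**Figure D2:**
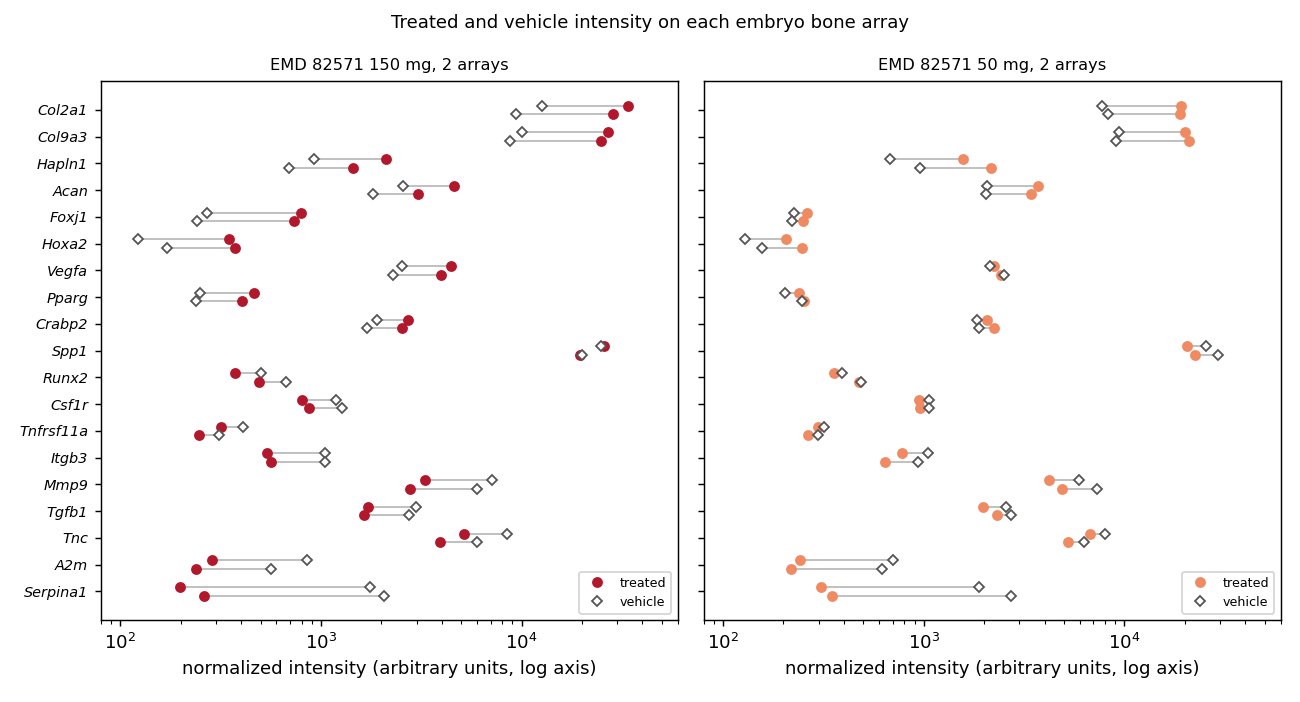
Normalised intensity (log axis) of selected genes on each EMD bone array, with filled circles for the treated channel, open diamonds for the vehicle channel and a line joining the channels of an array. Col2a1 lies higher in each treated channel, at 33921 against 12580 on the first 150 mg array, while Serpina1 lies lower, at 198 against 1761.

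The osteoclast genes were lower. All 4 measured fell at 150 mg (median log2 ratio -0.74), and 3 of 4 fell at 50 mg (median -0.32). Over all probes 16.8% rose and 13.4% fell at 150 mg, and 5.04% rose and 7.14% fell at 50 mg. Mmp9, the gelatinase that osteoclasts secrete, had intensities of 3315 and 2788 in 150 mg bone, against 7081 and 6002 in vehicle, and of 4194 and 4897 in 50 mg bone, against 5940 and 7292 in vehicle. Treated and vehicle values did not overlap at either dose. It was 2.14-fold lower at 150 mg (adjusted p = 1.6e-08) and 1.45-fold lower at 50 mg (adjusted p = 0.00034). Itgb3, the integrin beta chain by which osteoclasts attach to bone, gave log2 ratios of -0.96 and -0.90 at 150 mg and of -0.42 and -0.55 at 50 mg. Csf1r, the M-CSF receptor, gave -0.56 and -0.54 at 150 mg and -0.17 and -0.15 at 50 mg. Tnfrsf11a, the receptor RANK, gave -0.35 and -0.34 at 150 mg and passed there, whereas its -0.09 and -0.18 at 50 mg did not. At 50 mg the calls of Itgb3 and Csf1r were lost when either array was left out. Summed over the 4 genes, treated intensity was 0.512 and 0.518 of vehicle at 150 mg and 0.743 and 0.705 at 50 mg. Mmp9 made up most of this sum, with 7081 of 9724 in the vehicle channel of the first 150 mg array. In bulk bone, fewer cells of a type and less RNA per cell cannot be told apart. The leukocyte and marrow markers, which share part of this lineage, had summed ratios of 0.791 and 0.794 at 150 mg and of 0.933 and 0.944 at 50 mg. Csf1r is in both lists, and without it, in a sum added after seeing the data, the leukocyte and marrow markers were at 0.951 and 0.94 of vehicle at 150 mg and 0.983 and 1.01 at 50 mg. Of the 6 leukocyte and marrow markers Itgb2 rose (0.25) and Csf1r fell at 150 mg, with a median of -0.06 over the list. Endothelial markers lay between 0.926 and 0.964 on the 4 arrays. The part of either list in the osteoclast result was not tested.

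Among osteoblast and bone matrix genes, 2 of 3 fell at each dose, but not the same pair. The share of all probes that fell was 13.4% at 150 mg and 7.14% at 50 mg. Col1a2, a chain of type I collagen, had log2 ratios of -1.02 on the only 150 mg array that measured it and of -0.46 and -0.41 at 50 mg, and its 50 mg call was lost without either array. Runx2, the transcription factor needed for osteoblast formation, had -0.43 and -0.44 at 150 mg and -0.12 and -0.03 at 50 mg, where it did not pass. The EMD bone files annotate this probe as RUNX3, CBFA1 or AML3 and the retinoic acid bone files as RUNX2, so its gene is uncertain. Spp1, a phosphoprotein of mineralised matrix made by osteoblasts and osteoclasts, gave 0.05 and -0.04 at 150 mg, not called, and -0.31 and -0.38 at 50 mg, a call kept in 11 of 16 alternatives and lost with an offset of 10, median centring, the deposited ratios, the session block or without the second array. Mmp13, the collagenase of hypertrophic cartilage and osteoblasts, fell at both doses, with -0.46 and -0.29 at 150 mg and -0.39 and -0.29 at 50 mg, but leaving out 1 array ended the call at each dose.

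**Figure D3:**
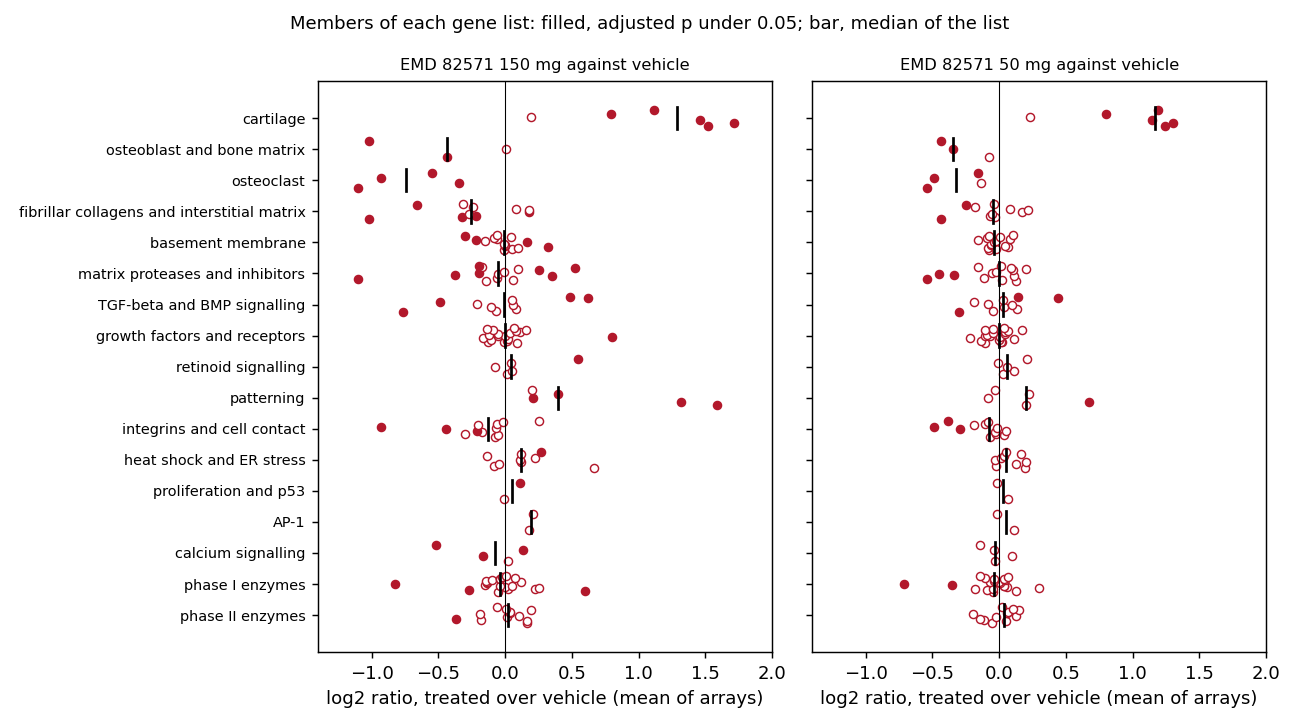
Log2 ratio against vehicle at 150 mg and 50 mg for the measured genes of each list in embryo bone, with filled points for an adjusted p under 0.05 and a bar at the list's median. Cartilage genes had a median of 1.29 at 150 mg and 1.17 at 50 mg, and osteoclast genes -0.74 and -0.32.

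Serpina1 and A2m, genes of plasma proteins best known from hepatocytes, and Cyp2d2 were lower in treated bone, while most hepatocyte markers did not pass. Serpina1, the protease inhibitor alpha-1-antitrypsin, had intensities of 198 and 262 in 150 mg bone, against 1761 and 2065 in vehicle, and of 308 and 349 in 50 mg bone, against 1883 and 2721 in vehicle. The change was 8.37-fold lower at 150 mg (adjusted p = 1.7e-16) and 6.90-fold lower at 50 mg (adjusted p = 1.4e-15), the largest of any probe at each dose. With the deposited ratios its log2 ratio at 150 mg was -1.93, against -3.07 in the fit. A2m, a broad protease inhibitor of plasma, gave log2 ratios of -1.58 and -1.24 at 150 mg and of -1.54 and -1.51 at 50 mg. Its call was lost at 150 mg without the first array and at 50 mg without either. Cyp2d2, a cytochrome P450, gave -0.95 and -0.69 at 150 mg and -0.53 and -0.89 at 50 mg. Of other probes richer in liver than in bone, CYP2D1/5 fell at 50 mg (-0.35) and CYP2A1/2 at 150 mg (-0.27). The CYP2A1/2 call was lost without either 150 mg array. Fmo5, Cyp17a1, HSST and both Ppara probes, also richer in liver, did not pass at either dose. Of 11 hepatocyte markers on the array, 1 rose (Foxa1) and 2 fell at 150 mg, and 2 fell at 50 mg (Serpina1 and A2m at each dose), with list medians of -0.04 and 0.01. Among all probes 16.8% rose and 13.4% fell at 150 mg, and 7.14% fell at 50 mg. Summed over 9 of them, intensity was 1375 to 1553 in the treated channels, against 3537 to 4140 in the vehicle channels. Without Serpina1 and A2m, a sum likewise added after seeing the data, the 7 left were at 1.05 and 1 of vehicle at 150 mg and 0.995 and 1.01 at 50 mg. The other markers, Hnf4a, Foxa2, Foxa3, Cyp7a1, Cyp2e1, Cyp2c12, Cyp3a23-3a1 and Cyp3a9, did not pass at either dose. Several of them lay near the blank spots, which hold no gene. After background subtraction Foxa2 had 100 and 82 in 150 mg bone, and Cyp2e1 87 and 82. An upper quantile of the blank spots was 46 on the first of these arrays and 127 on the second. Ratios near 1 at such levels show little about a change. The part of liver RNA in these results was not tested.

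Several regulators rose at 150 mg, and of those described here Foxj1 and Hoxa2 also differed between the doses by the test. Foxj1, a transcription factor best known for motile cilia, was measured at 796 and 735 in 150 mg bone, against 269 and 241 in vehicle, and had log2 ratios of 0.22 and 0.18 at 50 mg. Its 150 mg values stood apart from the others. It rose 3.00-fold at 150 mg (adjusted p = 1.4e-09) and did not pass at 50 mg, and the dose difference was 1.39 on the log2 scale (adjusted p = 2.2e-05). Hoxa2, a homeobox gene that patterns the second branchial arch, gave log2 ratios of 1.51 and 1.13 at 150 mg and of 0.69 and 0.65 at 50 mg, and passed at both. Its vehicle signal was low, at 100 and 121 after background subtraction on the 150 mg arrays. An upper quantile of blank spots was 55 and 73 there. Across the alternatives its 150 mg value ran from 0.85 to 1.65, and its 50 mg call was lost with the deposited ratios. Of 5 patterning genes 4 rose at 150 mg and 1 at 50 mg, beside 16.8% and 5.04% of all probes. The others of that list that rose were lower in size, with Pax9 at 0.43 and 0.37 and Pax3 at 0.24 and 0.18. These 150 mg calls of Pax9 and Pax3 were lost without either 150 mg array. Pparg, the adipocyte regulator, rose at 150 mg (0.89 and 0.75) and had 0.24 and 0.04 at 50 mg, but its call was lost without the first 150 mg array. Vegfa, the angiogenic factor made by hypertrophic chondrocytes, had 0.81 and 0.79 at 150 mg and 0.06 and -0.05 at 50 mg, and its call was lost without either 150 mg array. The dose difference was 0.68 for Pparg (adjusted p = 0.12) and 0.80 for Vegfa (adjusted p = 0.22), neither of which passed.

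Signalling and matrix genes included both higher and lower calls. Of 10 TGF-beta and BMP signalling genes, 2 rose and 2 fell at 150 mg, near the 16.8% higher and 13.4% lower over all probes. Bmp7 rose (0.51 and 0.46), as did Bmp5 (0.64 and 0.59), both bone morphogenetic proteins. Tgfb1, the cytokine stored in bone matrix, fell with -0.79 and -0.74 at 150 mg and -0.38 and -0.23 at 50 mg, where the call was lost without the first array. The probe named BMP8 fell at 150 mg (-0.89 and -0.98) and did not pass at 50 mg (-0.33 and -0.32). Bmp3, which restrains bone formation, fell at 150 mg (-0.54 and -0.44). Ccn2, connective tissue growth factor, rose at both doses, with 0.63 and 0.52 at 150 mg and 0.38 and 0.32 at 50 mg. Tnc, the matrix glycoprotein tenascin-C, fell at 150 mg with -0.71 and -0.61. Of 10 fibrillar collagen and interstitial matrix genes 1 rose and 4 fell at 150 mg, and of 12 integrin and cell contact genes none rose and 3 fell. These and the list counts that follow stand beside the same 16.8% higher and 13.4% lower over all probes. Among 5 retinoid signalling genes only Crabp2, a retinoic acid carrier, rose at 150 mg (0.51 and 0.58), and that call was lost without either array, while Rarb, a retinoic acid target, had 0.09 and 0.02. Of 19 growth factors and receptors 1 (Vegfa) rose at 150 mg and none passed at 50 mg. Of 4 calcium signalling genes, Plcg1 rose and Calb1 and Plcd1 fell at 150 mg, and none passed at 50 mg. Calb1, a calcium-binding protein, had -0.47 and -0.56 at 150 mg, and the phospholipases moved by less, at 0.13 for Plcg1 and -0.16 for Plcd1. The Calb1 call was lost without the second 150 mg array and the phospholipase calls without either. Bmp2, Bmp4, Fgfr1 and Igf2, and both Gja1 probes did not pass at either dose.

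Few enzyme and stress genes passed the test. Of 21 phase I drug-metabolising enzymes 1 rose and 2 fell at 150 mg, and of 12 phase II enzymes none rose and 1 fell. Cyp1b1, a cytochrome P450 expressed outside the liver, was the one that rose, with intensities of 918 and 686 in 150 mg bone, against 585 and 470 in vehicle, and it had log2 ratios of 0.13 and 0.12 at 50 mg. Several other enzymes lay near the blank spots in bone and could show little change. After background subtraction Cyp3a2 had 56 and 69 in 150 mg bone, and Ugt2b35 72 and 78. An upper quantile of blank spots was 46 and 127 on these arrays. Of 9 heat shock and ER stress genes 1 rose at 150 mg, the growth-arrest gene Gadd45a with 0.27, and none passed at 50 mg. The HSP70.1 probe had the largest log2 ratio of this list at 150 mg, 0.67, but did not pass. After background subtraction it had 1281 and 1009 in 150 mg bone, against 724 and 471 in vehicle. Atf4, a transcription factor of the integrated stress response that osteoblasts also need, rose at both doses, with 0.43 and 0.52 at 150 mg and 0.18 and 0.19 at 50 mg. Its 50 mg call was lost without either 50 mg array, with the deposited ratios and with the session block. Of 14 matrix proteases and inhibitors 3 rose and 4 fell at 150 mg, and of 15 basement membrane genes 2 rose and 2 fell. The enzyme, stress, protease and basement membrane counts stand beside 16.8% higher and 13.4% lower over all probes at 150 mg. Plat had 0.57 and 0.48 at 150 mg and 0.10 and 0.08 at 50 mg.

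At 50 mg alone 6 probes were called, all lower than vehicle: Spp1, Mmp24, L1cam, Lrp1, CYP2D1/5 and Gdf2. Mmp24, a membrane-bound metalloproteinase, had -0.02 and -0.08 at 150 mg and -0.37 and -0.52 at 50 mg. Lrp1, an endocytic receptor, had -0.10 and -0.06 at 150 mg and -0.35 and -0.27 at 50 mg. The 50 mg calls of L1cam and Gdf2 were lost without either 50 mg array, and those of Mmp24 and CYP2D1/5 without the second. That of Lrp1 was lost with median centring and with the deposited ratios.

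The doses were compared directly as 150 mg minus 50 mg, in which a dye effect common to the arrays cancels. The limma fit called 12 of 238 probes (5.04%), 7 higher (2.94%) and 5 lower (2.1%) at 150 mg. Of the 12, 11 lay further from 0 at 150 mg. The deposited ratios called 3 higher and 1 lower. Among those lower at 150 mg, the log2 difference was -0.56 for Mmp9 (adjusted p = 0.012), -0.39 for Csf1r (adjusted p = 0.0042), -0.46 for Tgfb1 (adjusted p = 0.0024) and -0.36 for the probe given as Runx2 (adjusted p = 0.022). Hoxa2 was higher by 0.65 (adjusted p = 0.0042), Bmp7 by 0.34 (adjusted p = 0.00086) and Plat, the tissue plasminogen activator, by 0.43 (adjusted p = 0.0010). L1cam, a neural adhesion molecule, had 0.29 and 0.21 at 150 mg and -0.41 and -0.35 at 50 mg, and the difference of 0.63 passed (adjusted p = 0.0068). Leaving out 1 array gave 2 to 9 calls. The Mmp9 and Runx2 dose calls were lost without any of the 4 arrays, those of Csf1r, Tgfb1 and Hoxa2 without the first 150 mg or the second 50 mg array, that of Bmp7 without the second 50 mg array, and that of L1cam without the first 150 mg array or either 50 mg array.

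**Figure D4:**
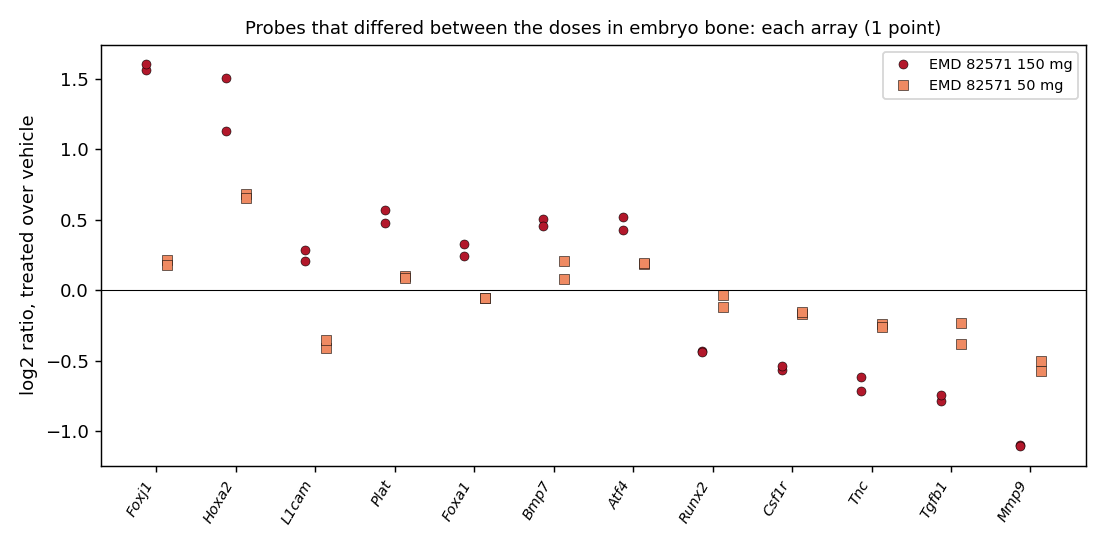
Log2 ratio of treated over vehicle at 150 mg and 50 mg, 1 point per array, for the 12 probes whose ratio differed between the doses in embryo bone. Foxj1 lies at 1.56 and 1.61 at 150 mg, against 0.22 and 0.18 at 50 mg, and Mmp9 at -1.10 and -1.11, against -0.50 and -0.57.

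Of the 6 cartilage genes, Col2a1, Col9a3, Col9a1 and Acan did not rise in bone after retinoic acid, whereas Hapln1 had a positive mean log2 ratio there. There Col2a1 had log2 ratios of -0.30 and -0.30, Col9a3 a mean of -0.99, Col9a1 -0.74 and -0.81, and Acan 0.00 and -0.02. In 150 mg EMD bone minus retinoic acid bone, 149 of 234 probes (63.7%) passed, 95 higher (40.6%) and 54 lower (23.1%), with a median difference of 0.11. The deposited ratios gave 42 higher and 54 lower. Of the cartilage genes 5 of 6 were higher after EMD 82571, by 2.44 for Col9a3 and 1.82 for Col2a1, and of the osteoclast genes 3 of 4 were lower. The difference was not alike over the 6 cartilage genes and ran from 0.04 to 2.49. Foxj1 differed by 2.66, with -1.05 and -1.10 after retinoic acid. A2m ran the opposite way, with 2.20 and 2.06 after retinoic acid and a difference of -3.54. The retinoic acid bone arrays were quantified in another session and had at least 188 dim spots each, while the EMD arrays had 41 to 49, so agent and session cannot be told apart.

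The treated over vehicle log2 ratios in bone were set against those in liver of embryos given the same dose, quantified in the same session. They differed for 93 of 237 probes (39.2%) at 150 mg and 26 of 238 (10.9%) at 50 mg. Higher and lower refer here to these ratios, not to the level of a gene in either tissue. At 150 mg the ratio was higher in bone for 47 (19.8%) and lower for 46 (19.4%), and with the deposited ratios for 20 and 9. At 50 mg 15 were higher (6.3%) and 11 lower (4.62%), with the deposited ratios 9 and 3, and with median centring 21 and 9. The Mmp9 ratio was lower in bone than in liver, with differences of -0.90 at 150 mg and -0.70 at 50 mg. For the Serpina1 ratio the differences were -2.76 and -2.66. The Hapln1 ratio was higher in bone by 1.05 at 150 mg and by 1.01 at 50 mg. In liver the vehicle levels of Hapln1, Col9a1, Col9a3 and Mmp9 were low, at mean log2 intensities of 6.98, 7.11, 7.17 and 7.81. The same means in bone were 8.74, 10.40, 13.01 and 12.16. Levels this low limit what a liver ratio can show. Col2a1 was not particular to bone in its direction: liver arrays gave 2.08 and 1.98 at 150 mg and 0.65 and 0.46 at 50 mg, in a tissue where its level was low. At 150 mg Col2a1 rose more in liver, with a called bone minus liver difference of -0.51. Of the 6 cartilage genes 4 had a higher ratio in bone than in liver at 150 mg and 1 a lower ratio.

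**Figure D5:**
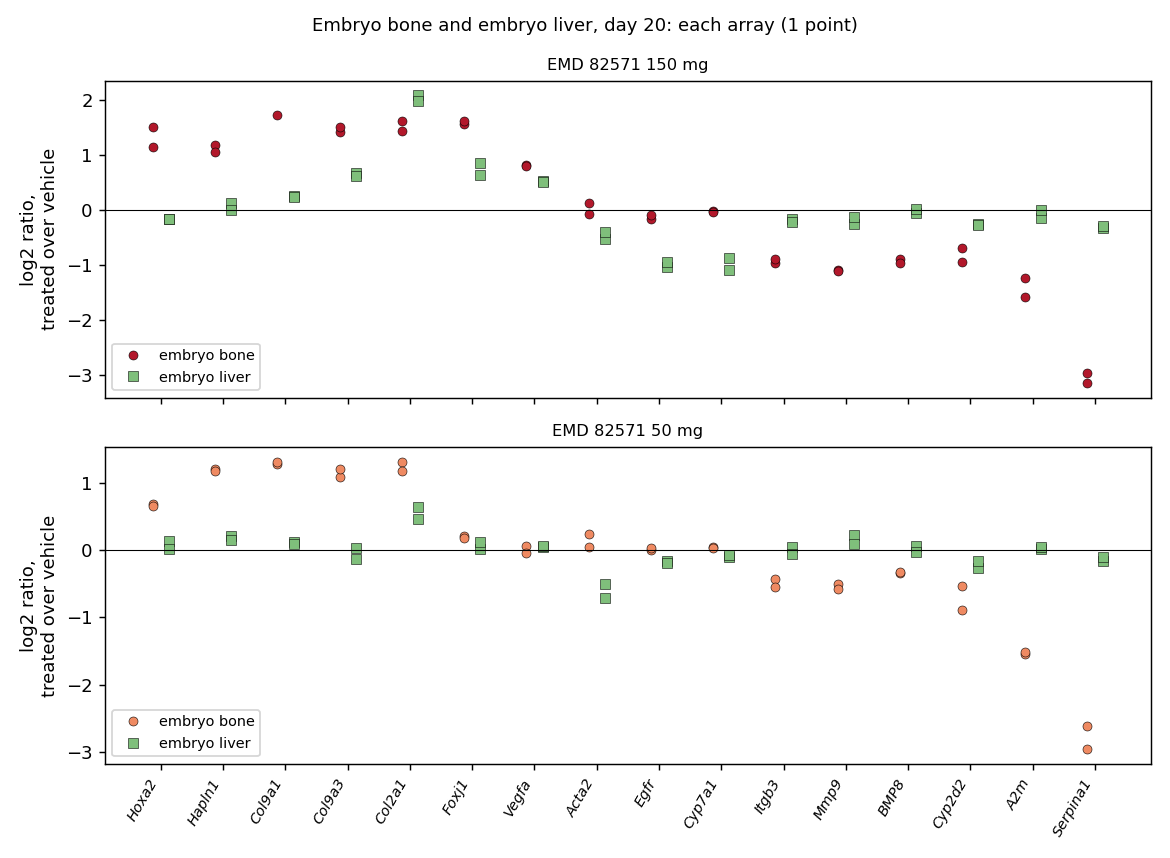
Log2 ratio of treated over vehicle in embryo bone and in embryo liver at the same dose of EMD 82571, for named genes. Mmp9 lies lower in bone (-1.10 and -1.11 at 150 mg) than in liver (-0.27 and -0.13), whereas Col2a1 lies above 0 in both tissues.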

How the data were processed

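The arrays are 2-colour PIQOR cDNA arrays with 4 spots per probe. Per the file headers and labels, the deposited spot files give foreground and background intensity per channel with marks for dim, uneven or hand-marked spots, and the authors also deposited a table of log2 ratios, which matched the ratio without background subtraction and was not centred. Here, limma 3.58.1 in R 4.3.3 applied normexp background correction (offset 50) and loess within arrays, without control and marked spots, and averaged the spots of a probe. One model of 15 group means over all 34 arrays was moderated by eBayes and adjusted by Benjamini-Hochberg over all probes tested, with a threshold of 0.05. A probe was tested if above background by 2 SD in 0.5 of its spots on 2 arrays. The number of arrays, 2 per group, limits the precision. Genes named were drawn from the 12 largest calls in each direction against vehicle among probes measured on both arrays with the same sign. The 5 largest in other comparisons, up to 4 per list and a fixed set of role genes were added. Not all genes so chosen are described, among them Itgav (-0.44 at 150 mg) and Foxc2 (0.45 at 150 mg and 0.29 at 50 mg). A few other probes are named for context. Members and lists were chosen with earlier results of these data known. No array was left out. Alternatives are given in the closing section.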

Additional observations from a re-analysis of the deposited data

Results flagged for a closer look

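The response to 150 mg of EMD 82571 differed between embryo bone and embryo liver for 93 probes in the limma interaction test (bone minus liver, log2 scale). Among probes measured on both arrays of each group, the largest positive differences were 1.49 for Hoxa2, 1.05 for Hapln1, 1.05 for UGT2B6, 0.95 for Cyp7a1 and 0.86 for Egfr. Col9a1, measured on 1 bone array, differed by 1.48 (adjusted p = 1.7e-05). For UGT2B6, Cyp7a1 and Egfr the bone ratios lay near 0 (Egfr -0.17 and -0.09) and the liver ratios below it (Egfr -1.04 and -0.94). In bone UGT2B6 and Cyp7a1 lay near the blank spots, so their bone ratios could show little change. On the second 150 mg array UGT2B6 had 65 treated and 70 vehicle after background subtraction, and Cyp7a1 105 and 94. An upper quantile of blank spots was 127 and 73 there, while Egfr had 459 and 347. The largest negative differences were -2.76 for Serpina1, -1.33 for A2m, -0.91 for BMP8, -0.90 for Mmp9 and -0.73 for Itgb3. The A2m difference was lost when any 1 of the 4 arrays was left out. In liver the vehicle levels of Hapln1 and BMP8 were low, at mean log2 intensities of 6.98 and 6.80, against 8.74 and 8.66 in bone. Levels this low limit what a liver ratio can show.

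At 50 mg 26 probes differed. Col9a1 was at 1.20, Col9a3 at 1.20, Hapln1 at 1.01, Acta2, an actin of smooth muscle, at 0.75 and Col2a1 at 0.69. Serpina1 was at -2.66, Mmp9 at -0.70, Mmp24 at -0.61, Cyp2d2 at -0.50 and Gdf2 at -0.50. Acta2 in bone had 0.05 and 0.24, and in liver -0.50 and -0.72. Leaving out 1 array ended the calls of Acta2, Mmp24, Cyp2d2 and Gdf2. Col9a1, Col9a3, Hapln1, Col2a1 and Mmp24 were low in liver, with vehicle means of log2 7.11, 7.17, 6.98, 7.20 and 6.65, which limits their liver ratios. The causes were not tested.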

How the results depend on the processing

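No paired analysis was possible because the labels give no replicate numbers shared between the groups. The 5 cartilage calls, the Foxj1 call and the Serpina1 call at 150 mg kept direction and call under every alternative that gave them a value. Calls at 150 mg, 50 mg and for 150 mg minus 50 mg were 72, 29 and 12 in the reported fit. They were 45 at 150 mg and 6 for the dose difference with an offset of 10, and 34 for the dose difference without background correction. The deposited ratios gave 36, 14 and 4. Array batch C alone gave 117, 70 and 67. Bone arrays alone gave 46 at 50 mg and 34 for the dose difference, and a mean per group and array batch gave 56 and 53. The session as a random block (correlation 0.409) gave 42, 16 and 26. Only the arrays of the same session, an alternative chosen after seeing the data, gave 131, 82 and 78. Leaving out 1 array gave 35 to 37 at 150 mg, 14 to 16 at 50 mg and 2 to 9 for the dose difference. Against liver (93 and 26), an offset of 10 gave 57 at 150 mg, the deposited ratios 29 and 12, batch C 65 at 50 mg, a mean per group and batch 52 at 50 mg, the same session 148 and 87, and leaving out 1 array 54 to 64 at 150 mg and 13 to 20 at 50 mg. Against retinoic acid (149) the deposited ratios gave 96 and leaving out 1 array 117 to 125. Tnc at 50 mg reversed to 0.00041 in the deposited ratios, and Mmp24 at 150 mg to 0.26 with the gene mean subtracted. The deposited ratios left out 7 probes whose rows could not be matched. Causes were not tested.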
